A study of Mus musculus with 9 samples.

Results

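The integrins that hold leukocytes to vessel walls and to each other were followed through transformation of mouse bone marrow progenitors by the KMT2A-MLLT1 fusion and through treatment intended to delete Runx2. Of the 21159 genes in the count table, 9 were selected by symbol, and all 9 were found and passed the filter on low counts. They are the alpha subunit genes Itgal, Itgam, Itgax and Itga4, the beta subunit genes Itgb2, Itgb1 and Itgb7, the integrin ligand gene Icam1 and the selectin ligand gene Selplg. The list was built around Itgal, whose level in the libraries labelled Runx2ko was known from earlier results on these data. For that reason Itgal is described without a test in any comparison, and no member is tested between Runx2ko and Runx2wt, the contrast that led to it.

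All cells came from lineage-depleted bone marrow of Runx2fl/fl CreErt2tg/+ mice, in which exons of Runx2 flanked by loxP sites can be removed by a Cre recombinase that 4-hydroxytamoxifen (4-OHT) activates, so every group carries the floxed alleles and the inducible Cre. A retrovirus expressing KMT2A-MLLT1 with eGFP was used for transduction, and the growth protocol describes this step for all samples. The sample descriptions give the cytokines IL-3 and IL-6 at 10 ng/ml each and SCF at 50 ng/ml for every library. BM progenitor RNA (untreated, 3 libraries) was taken before the first replating in methylcellulose; the transformed cells were grown in suspension after the second replating. Runx2wt (3 libraries) were transformed cells given the ethanol carrier, and Runx2ko (3 libraries) were transformed cells given 400 nM 4-OHT for 24 hours. The BM progenitor and transformed groups therefore differ in time in culture, growth medium and carrier as well as in transformation, and these cannot be told apart. The RNA was read as 3' tags (QuantSeq), with which a transcript yields about 1 tag whatever its length. The submitters call all samples independent biological replicates; the age of the mice is not stated there.

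Libraries held 3118594 to 5348177 counts. Runx2ko replicate 1 stood apart: its correlation of log2 CPM (counts per 1000000 counts of the library, with libraries scaled by TMM) with the other 5 transformed libraries was 0.793 to 0.816, against 0.934 to 0.959 among those 5. Runx2 itself was at 53.3, 46.7 and 58.8 CPM in BM progenitor, 159, 179 and 131 CPM in Runx2wt, and 21.02, 120 and 135 CPM in the libraries labelled Runx2ko. Only replicate 1 labelled Runx2ko was thus below Runx2wt by a wide margin. The labels do not name the deleted exons, and 3' tags outside them would check nothing, so "Runx2ko" below is the name of the label. Mast cell and basophil markers summed to 6543 CPM in Runx2ko replicate 1, against 61.8 and 508 CPM in replicates 2 and 3, and monocyte and macrophage markers to 612 CPM against 5296 and 11272 CPM. Calls, counts and medians that change when that library is left out are given both ways. The progenitor label was checked against 12 stem and progenitor markers, which summed to 1062 to 1260 CPM in BM progenitor, with all 12 counted, and to 1298 to 2789 CPM in the transformed libraries, with 10 to 12 counted. They did not all differ one way: Hlf was at 15.3 to 26.2 CPM in BM progenitor and at most 1.08 CPM in transformed libraries, and Meis1 at 21.03 to 26.6 CPM against 139 to 266 CPM. Cd93, a large part of the sum, was at 329 to 448 CPM against 624 to 1015 CPM. The median log2 fold change of the 11 tested markers against BM progenitor was -1.88 in Runx2wt and 0.0495 in Runx2ko. Without Runx2ko replicate 1 these medians were -1.88 and -2.02. BM progenitor also held markers of mature cells, with late neutrophil markers at 7643 to 10435 CPM and eosinophil markers at 1352 to 1805 CPM. T and NK cell markers apart from the granzyme gene Gzmb were low, with Lck, at most 22.6 CPM, the highest of them, and Cd3d, at most 4.76 CPM, the next.

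Integrins are receptors made of 1 alpha and 1 beta chain that join the cytoskeleton to ligands on other cells or in the matrix. Itgb2 encodes CD18, the beta2 chain, which pairs with CD11a (Itgal) to make LFA-1, with CD11b (Itgam) to make Mac-1, and with CD11c (Itgax). LFA-1 binds ICAM-1 and serves firm arrest, synapse formation and homing, and Mac-1 is a complement and fibrinogen receptor of myeloid cells. Itga4 pairs with Itgb1 to make VLA-4, which holds progenitors to VCAM-1 and fibronectin in marrow, or with Itgb7 to make the gut-homing receptor for MAdCAM-1, also known from mast cell progenitors. Selplg encodes PSGL-1, the selectin ligand on which leukocytes roll.

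On the GRCm38 build with GENCODE M21 annotation, the 3 alpha genes of the beta2 integrins lie near each other on chromosome 7: Itgal (ENSMUSG00000030830) at chr7:127296260-127335138, Itgam at chr7:128062640-128118491 and Itgax at chr7:128129547-128150657, all on the plus strand. The coding stretches around the conserved membrane-proximal motif of the 4 alpha chains, where the tail of the alpha chain meets the beta chain, show how alike and how distinct these family members are. Each is 45 bases from a GENCODE M21 transcript, 5′ to 3′, with the codons for glycine, phenylalanine, phenylalanine, lysine and arginine in capitals.
Itgal: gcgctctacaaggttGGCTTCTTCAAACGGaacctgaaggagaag
Itgam: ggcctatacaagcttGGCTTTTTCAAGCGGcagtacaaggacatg
Itgax: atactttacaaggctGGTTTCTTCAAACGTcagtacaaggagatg
Itga4: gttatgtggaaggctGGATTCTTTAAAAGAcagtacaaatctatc
Over whole transcripts, no pair of the 4 genes shared an exact run longer than 17 bases, and Itgal shared at most 17 bases with Itgax and 13 with Itgam or Itga4.

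Itgal, the LFA-1 alpha chain, measured 97.3, 81.7 and 102 CPM in the BM progenitor libraries, 82.8, 101 and 68.4 CPM in those of Runx2wt and 168, 409 and 407 CPM in those labelled Runx2ko. BM progenitor and Runx2wt overlapped, and all 3 Runx2ko libraries lay above all 6 others, with replicate 1 the lowest of them. In raw counts the Runx2ko libraries held 520, 2151 and 1503 Itgal tags. The group means were 93.5 ± 10.4 CPM in BM progenitor, 84.2 ± 16.5 CPM in Runx2wt and 328 ± 139 CPM in Runx2ko (SD, n = 3 each).

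As a description of the values that led to this gene, the log2 fold change of Itgal between Runx2ko and Runx2wt was 1.96 (SE 0.32), and 2.28 (SE 0.19) without Runx2ko replicate 1. Against BM progenitor it was 1.81 (SE 0.32) in Runx2ko, or 2.12 (SE 0.19) without replicate 1, and -0.15 (SE 0.31) in Runx2wt. The order of the groups was therefore Runx2ko, then BM progenitor and Runx2wt, which did not differ beyond their spread.

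Across all 11196 genes tested, 0% passed between Runx2ko and Runx2wt at an adjusted p of 0.05 in edgeR's quasi-likelihood test. Unadjusted, 886 genes were under 0.05, the smallest adjusted p was 0.442, DESeq2 called 48 genes and limma-voom 0. Without Runx2ko replicate 1, edgeR called 5 genes, or 0.043%. The 2 groups did not overlap for 9.68% of genes, or 19.2% without that library. Of the 8 members other than Itgal, all overlapped between Runx2wt and Runx2ko.

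**Figure D1:**
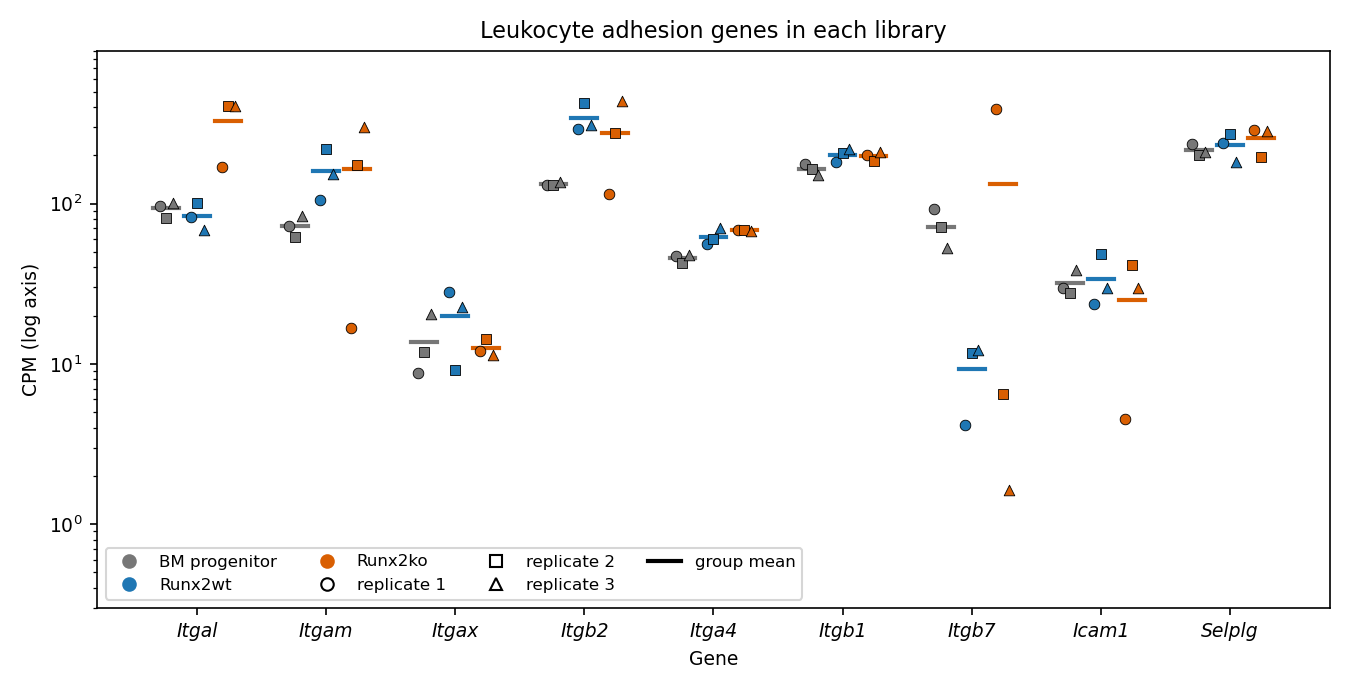
Level of each of the 9 genes in each of the 9 libraries, in CPM on a log axis; colour gives the group, marker shape the replicate number and the bar the group mean. Itgal in Runx2ko (168 to 409 CPM) lies above all other libraries (68.4 to 102 CPM), and Itgb7 ranges from 1.63 to 390 CPM within Runx2ko alone.

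The other alpha chains of the beta2 integrins did not follow Itgal. Itgam, the Mac-1 alpha chain, measured 72.1, 61.8 and 83.9 CPM in the BM progenitor libraries, 105, 220 and 154 CPM in those of Runx2wt and 16.8, 175 and 300.3 CPM in those labelled Runx2ko. Every Runx2wt library was above every BM progenitor library, while Runx2ko held both the lowest and the highest library of the series. Itgam overlaps the same-strand gene Gm49368 over 3450 exonic bases, so reads there cannot be given to 1 gene by position alone. Gm49368 has no entry in the count table.

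The log2 fold change of Itgam in Runx2wt against BM progenitor was 1.14 (SE 0.73), with a 95% interval of -0.49 to 2.76 and an edgeR adjusted p of 0.308. Without Runx2ko replicate 1, which enters the shared estimate of spread, the change was 1.13 (SE 0.28) with an adjusted p of 0.0115. Against BM progenitor, Itgam in Runx2ko gave 1.18 (SE 0.73, edgeR adjusted p 0.289), and 1.70 (SE 0.30, adjusted p 0.00228) without that library. Monocyte and macrophage markers summed to 4249 to 6115 CPM in BM progenitor and 6866 to 12972 CPM in Runx2wt, and the library lowest in Itgam was also lowest in them; their part in the Itgam values was not tested. In bulk RNA, fewer cells of a type and less RNA per cell cannot be told apart.

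Itgax, the CD11c gene of dendritic cells and some macrophages, was the lowest of the members in counts, at 8.76, 11.9 and 20.6 CPM in BM progenitor. Runx2wt libraries held 28.0, 9.15 and 22.5 CPM and Runx2ko libraries 12.0, 14.3 and 11.4 CPM. All 3 groups overlapped. Its log2 fold change against BM progenitor was 0.54 (SE 0.44, 95% interval -0.44 to 1.52, edgeR adjusted p 0.424) in Runx2wt and -0.13 (SE 0.44, interval -1.12 to 0.86, adjusted p 0.869) in Runx2ko.

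Because these alpha chains share the beta2 partner, their counts were also set against each other within a library, where no scaling between libraries enters. The share of Itgal in the summed counts of Itgal, Itgam and Itgax was 54.6%, 52.6% and 49.3% in BM progenitor, 38.4%, 30.7% and 27.9% in Runx2wt, and 85.4%, 68.4% and 56.7% in Runx2ko. The 3 groups did not overlap. Of the shares nearest each other between groups, 54.6% in BM progenitor replicate 1 had an exact binomial 95% interval (Clopper-Pearson, counting error only) of 51.4% to 57.8%, and 56.7% in Runx2ko replicate 3 one of 54.7% to 58.5%, so these libraries cannot be told apart at this depth. Tags of different genes are not captured equally, so a share shows which way the mixture of transcripts differed and is not a ratio of proteins.

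The mean Itgal share was 52.2% ± 2.69 in BM progenitor, 32.3% ± 5.45 in Runx2wt and 70.2% ± 14.4 in Runx2ko (SD, n = 3 each). It was lower by 19.8 points in Runx2wt than in BM progenitor, a difference of -19.8, and higher by 17.99 points in Runx2ko, or 10.4 points without Runx2ko replicate 1. No test is given, since the share contains Itgal; 3 libraries against 3 could not give an exact permutation p below 0.1. Itgam filled most of the rest, with 40.3% ± 0.50 in BM progenitor, 59.3% ± 9.52 in Runx2wt and 26.5% ± 16.8 in Runx2ko. In Runx2wt the smaller Itgal share went with Itgam levels above those of BM progenitor, and Itgal itself overlapped between these groups. In Runx2ko replicates 2 and 3 Itgal was above its level in BM progenitor and so was Itgam, whereas in replicate 1 Itgal was above and Itgam below.

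**Figure D2:**
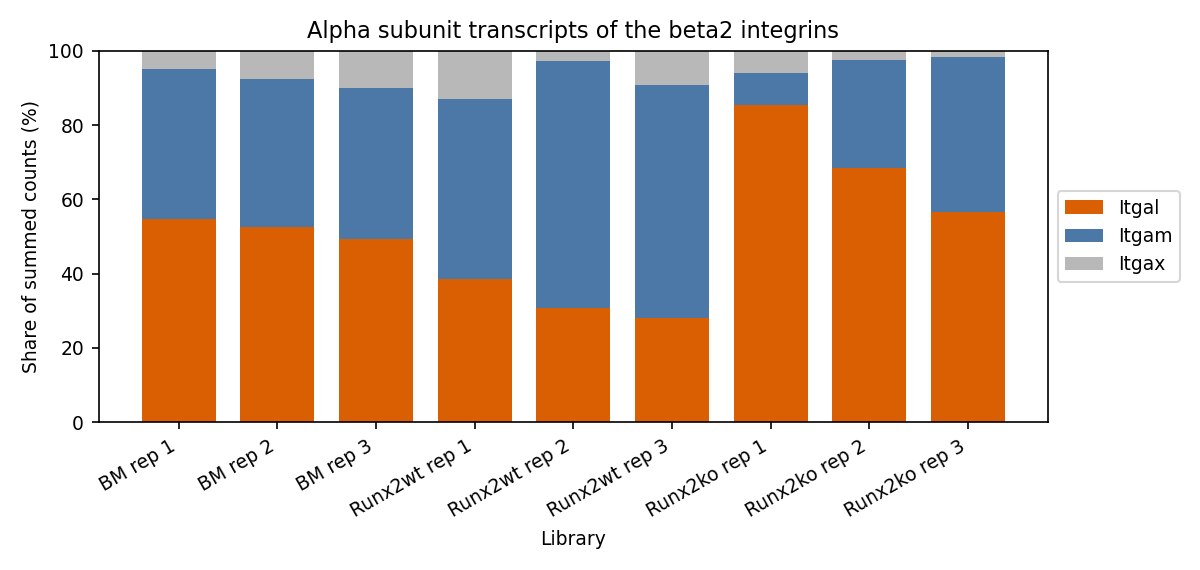
Share of Itgal, Itgam and Itgax in their summed raw counts, in percent, for each of the 9 libraries. Itgal holds 49.3% to 54.6% in BM progenitor, 27.9% to 38.4% in Runx2wt and 56.7% to 85.4% in Runx2ko.

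Itgb2 (chr10:77530252-77565708, plus strand), the common beta2 chain without which none of these receptors reaches the surface, rose in Runx2wt. It measured 131, 132 and 136 CPM in the BM progenitor libraries, 292, 427 and 308 CPM in those of Runx2wt and 115, 275 and 435 CPM in those labelled Runx2ko. Runx2wt lay wholly above BM progenitor, and Runx2ko reached from below BM progenitor to above Runx2wt.

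The log2 fold change of Itgb2 in Runx2wt was 1.36 (SE 0.39, 95% interval 0.49 to 2.24, edgeR adjusted p 0.0482), and 1.36 (SE 0.20, adjusted p 0.00072) without Runx2ko replicate 1. Over the 17 alternatives its adjusted p ranged from 0.000284 to 0.157, and it was under 0.05 in 5. Leaving out any 1 BM progenitor or Runx2wt library, or Runx2ko replicate 2, ended the call, with adjusted p from 0.0694 to 0.157. In Runx2ko the change against BM progenitor was 1.05 (SE 0.39, adjusted p 0.0919), and without replicate 1 it was 1.41 (SE 0.22, adjusted p 0.00108). The 2 comparisons with BM progenitor share those 3 libraries.

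Itgb2 and Itgal did not move together: Runx2wt held more Itgb2 than BM progenitor at similar Itgal, and between Runx2wt and Runx2ko the log2 change of Itgb2 was -0.32 (SE 0.38), or 0.051 (SE 0.22) without replicate 1. In Runx2ko replicate 1 Itgal was above all BM progenitor libraries while Itgb2, at 115 CPM, was below all 3 of them.

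Itga4 (chr2:79255426-79333123, plus strand), the alpha4 chain, rose in Runx2ko. It measured 47.3, 42.6 and 47.8 CPM in the BM progenitor libraries, 56.1, 60.4 and 70.4 CPM in those of Runx2wt and 68.9, 68.1 and 67.5 CPM in those labelled Runx2ko. Both transformed groups lay wholly above BM progenitor, and the 3 Runx2ko libraries agreed within 1.02-fold, replicate 1 included. Against BM progenitor the log2 fold change was 0.57 in Runx2ko (SE 0.15, 95% interval 0.22 to 0.92, edgeR adjusted p 0.0349), and 0.56 (SE 0.18, adjusted p 0.0355) without replicate 1. Over its 17 alternatives that adjusted p ranged from 0.0302 to 0.147 and was under 0.05 in 8; leaving out any BM progenitor library, Runx2wt replicate 2, or Runx2ko replicate 2 or 3 ended the call.

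In Runx2wt the change of Itga4 was 0.44 (SE 0.15, 95% interval 0.093 to 0.79) with an edgeR adjusted p of 0.0849, and 0.0638 without Runx2ko replicate 1. Exons of Itga4 overlap the opposite-strand gene Cerkl over 1124 bases. Cerkl held 146 counts over all libraries and Itga4 2231, and nothing used here gives the strand setting of the counting.

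Itgb1 (chr8:128685654-128733200, plus strand), the beta1 chain of VLA-4 and of many matrix receptors, had the narrowest range of all members, 1.44-fold over the 9 libraries. It measured 176, 165 and 151 CPM in the BM progenitor libraries, 182, 206 and 218 CPM in those of Runx2wt and 200.2, 185 and 209 CPM in those labelled Runx2ko. Every transformed library was above every BM progenitor library. The log2 fold change was 0.30 (SE 0.14, 95% interval -0.019 to 0.61, edgeR adjusted p 0.18) in Runx2wt and 0.27 (SE 0.14, interval -0.046 to 0.59, adjusted p 0.212) in Runx2ko, so neither passed.

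Itgb7 (chr15:102215995-102231944, minus strand), the other partner of the alpha4 chain, varied most, with a 239.9-fold range over the 9 libraries. It measured 92.0, 71.2 and 52.7 CPM in the BM progenitor libraries, 4.14, 11.6 and 12.2 CPM in those of Runx2wt and 390, 6.47 and 1.63 CPM in those labelled Runx2ko. The 5 transformed libraries other than Runx2ko replicate 1 lay wholly below BM progenitor, and replicate 1 lay above every other library.

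With all libraries the log2 fold change of Itgb7 in Runx2wt was -2.97 (SE 1.498, 95% interval -6.33 to 0.39, edgeR adjusted p 0.204). Without Runx2ko replicate 1 it was -2.98 (SE 0.43, interval -3.93 to -2.03) and passed with an adjusted p of 0.000628. In Runx2ko the value changed sign with that library, from 0.87 (SE 1.34, edgeR adjusted p 0.69) to -4.07 (SE 0.55, adjusted p 0.000518). Both are printed because 1 library decides the direction.

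The summed level of 13 mast cell and basophil markers stood in a partly similar order. It was 1187 to 1321 CPM in BM progenitor, 90.1 to 348 CPM in Runx2wt, and 6543, 61.8 and 508 CPM in Runx2ko. The library highest in Itgb7 was highest in this sum, with 13 of 13 genes counted. The library lowest in Itgb7, Runx2ko replicate 3, also had 13 of 13 genes counted and a larger sum than any Runx2wt library. Single genes did not all follow the sum. The high-affinity IgE receptor gene Fcer1a was at 17.8 to 19.7 CPM in BM progenitor and 333 CPM in Runx2ko replicate 1. The mast cell protease gene Cpa3 was highest in that library, at 2002 CPM. In Runx2wt replicate 3 and Runx2ko replicate 3, at 113 and 175 CPM, it exceeded BM progenitor (63.9 to 94.2 CPM). Tpsb2 had no counts in BM progenitor, and Mitf was lowest in Runx2ko replicate 1, at 3.56 CPM. The part of these markers in the Itgb7 values was not tested.

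**Figure D3:**
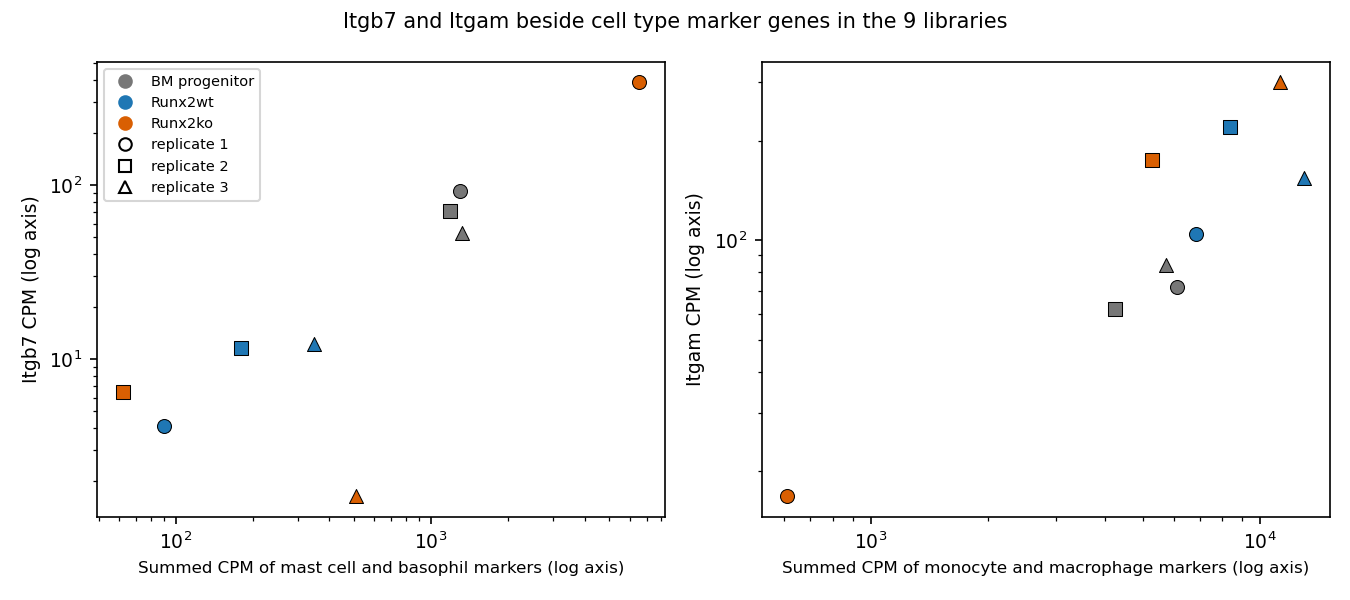
Itgb7 against the summed CPM of mast cell and basophil markers (left) and Itgam against that of monocyte and macrophage markers (right), both axes log, 1 point per library. Runx2ko replicate 1 is at 6543 CPM of mast cell markers with Itgb7 at 390 CPM, and at 612 CPM of monocyte markers with Itgam at 16.8 CPM.

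The mixture of beta partners open to the alpha4 chain was worked out in the same way, a measure chosen after these values were seen and given with no test. Itgb7 made up 34.4%, 30.1% and 25.8% of the summed Itgb1 and Itgb7 counts in BM progenitor and 2.22%, 5.36% and 5.32% in Runx2wt. In Runx2ko it was 66.1% in replicate 1, 3.38% in replicate 2 and 0.773% in replicate 3. Itgb1 also pairs with other alpha chains, so this share does not measure alpha4 receptors.

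Icam1 (chr9:21015985-21028817, plus strand), the LFA-1 and Mac-1 ligand that inflammatory signals induce, was at 29.7, 27.8 and 38.7 CPM in BM progenitor. Runx2wt libraries held 23.7, 48.5 and 29.8 CPM and Runx2ko libraries 4.53, 41.3 and 29.5 CPM. Apart from the low value in Runx2ko replicate 1, the libraries of all groups lay between 23.7 and 48.5 CPM and overlapped. The log2 fold change was 0.08 (SE 0.58, 95% interval -1.23 to 1.39, edgeR adjusted p 0.942) in Runx2wt and -0.34 (SE 0.59, interval -1.65 to 0.98, adjusted p 0.729) in Runx2ko, where it was 0.14 without replicate 1. These intervals leave room for differences of either sign. An antisense gene, Gm47079, overlaps Icam1 exons over 511 bases and has no entry in the count table.

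Selplg (chr5:113818536-113832644, minus strand), the PSGL-1 gene, stayed within 1.59-fold over the 9 libraries. It measured 237, 201 and 209 CPM in the BM progenitor libraries, 241, 270.2 and 182 CPM in those of Runx2wt and 289, 194 and 282 CPM in those labelled Runx2ko. The groups overlapped throughout, with a log2 fold change of 0.10 (SE 0.20, 95% interval -0.36 to 0.56, edgeR adjusted p 0.768) in Runx2wt and 0.24 (SE 0.20, interval -0.22 to 0.70, adjusted p 0.441) in Runx2ko.

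Of the 8 members other than Itgal, 1 rose (Itgb2) and 0 fell in Runx2wt against BM progenitor, where 13.5% of all genes tested passed, 8.28% higher and 5.23% lower. In 5 of 8 the libraries of the groups did not overlap (Itgam, Itgb2, Itga4 and Itgb1 above, Itgb7 below), against 49.3% of all genes. At an unadjusted edgeR p under 0.05 there were 2 members in each of the comparisons with BM progenitor. Among all 11196 genes tested there were 3558 in Runx2wt and 3746 in Runx2ko. DESeq2 called 1 member in Runx2wt and 2 in Runx2ko, beside 2250 and 2529 of all genes. The median log2 fold change of these members in Runx2wt was 0.37, and that of all genes tested was 0.011 (0.37 and 0.0064 without Runx2ko replicate 1). In Runx2ko against BM progenitor, 1 rose (Itga4) and 0 fell, where 17.2% of all genes passed (10% higher and 7.14% lower), and 2 of 8 did not overlap, against 38.4% of all genes. Their median was 0.42 and that of all genes 0.067, or 0.20 and -0.0022 without Runx2ko replicate 1. These shares of members are near the background, so the calls belong to single genes and not to the list.

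Without Runx2ko replicate 1 more genes passed throughout. In Runx2wt 2 members rose (Itgam and Itgb2) and 1 fell (Itgb7), where 28% of all genes passed (15.9% higher and 12.1% lower), and 5 of 8 did not overlap, against 48.8% of all genes. In Runx2ko 3 rose (Itgam, Itgb2 and Itga4) and 1 fell (Itgb7), where 28.5% passed (15.9% higher and 12.6% lower), and 5 of 8 did not overlap, against 58.6% of all genes.

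**Figure D4:**
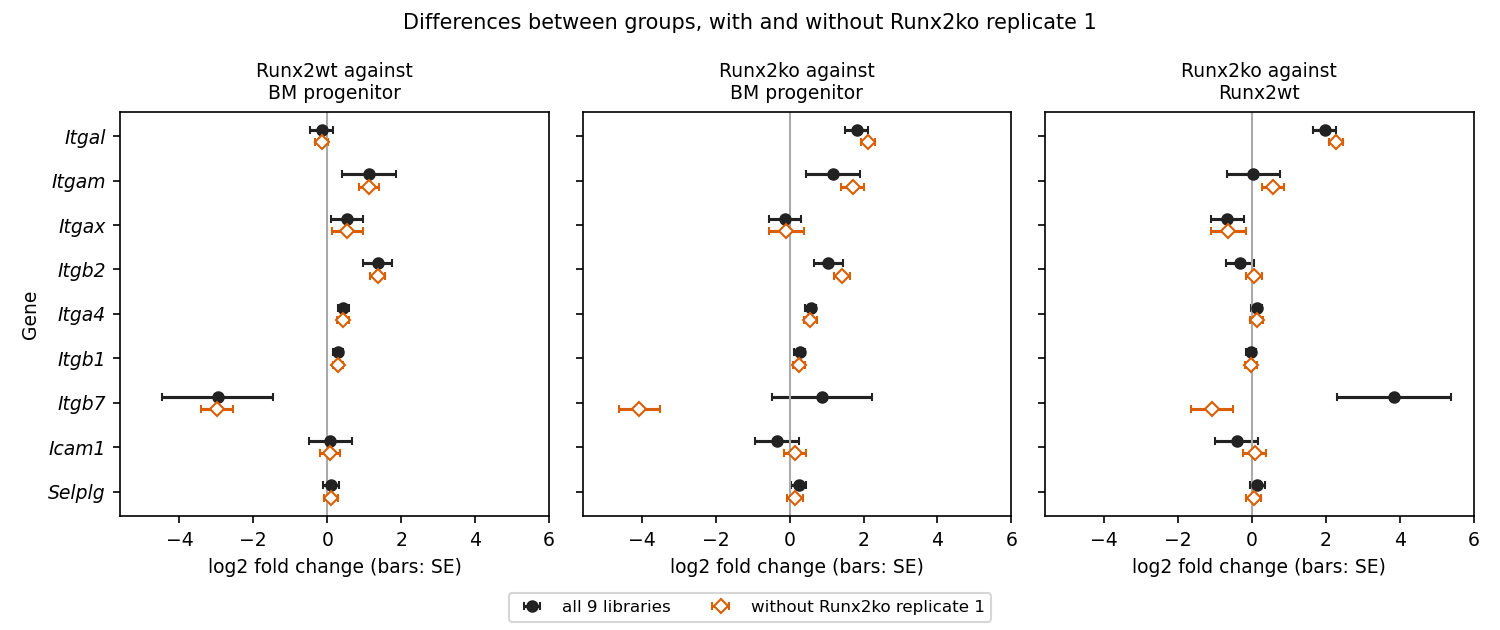
Log2 fold change of the 9 genes in the 3 comparisons, with bars of 1 SE; filled points use all 9 libraries and open diamonds leave out Runx2ko replicate 1. Itgb7 against BM progenitor moves from 0.87 to -4.07 in Runx2ko, while Itga4 stays at 0.57 and 0.56.

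Genes whose pattern over the 9 libraries was most like that of Itgal were found by the root mean square difference of log2 CPM, each gene centred on its own mean, among 8362 genes with a mean of at least 10 CPM. The 5 nearest were Brpf3 (0.48), a bromodomain protein of a histone acetyltransferase complex, Ifitm1 (0.52), an interferon-induced membrane protein, Ighm (0.56), the immunoglobulin mu heavy chain, Lonp2 (0.57), a peroxisomal protease, and Senp7 (0.59), a SUMO protease. Brpf3 was at 17.8 to 21.5 CPM in BM progenitor, at 19.9 to 30.5 CPM in Runx2wt and at 45.3 to 55.2 CPM in Runx2ko. Ifitm1 was at 865 to 1061 CPM, 788 to 1323 CPM and 1837 to 2101 CPM in the same order. In these 2 genes and Lonp2 the 3 Runx2ko libraries lay above the 6 others. They did not in Ighm, where Runx2ko replicate 1 was at 58.5 CPM and Runx2wt replicate 2 at 83.1 CPM, or in Senp7, where these were at 26.2 and 35.8 CPM. All 5 were chosen for their likeness to Itgal.

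None of the members was among the nearest. Itga4 ranked 702 (a difference of 0.82), Selplg 1700, Itgb1 1985 and Itgb2, the partner of Itgal, 4038 (1.00). Itgax ranked 6807, Itgam 7169, Icam1 7404 and Itgb7 8302 of 8362 (2.75).

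Motifs were searched in the promoters because RUNX factors and PU.1 are known regulators of leukocyte integrin genes. RefSeq windows on GRCm38.p6, from 250 bases before to 50 after the start, were at hand for 6 of the 9 members: Icam1, Itga4, Itgam, Itgax, Itgb1 and Itgb7. The RUNX letters TGTGGT, or ACCACA on the other strand, occurred in 16.8% of all 32851 windows, and among the 6 they occurred in Itga4 and Itgax. These windows are shown, 5′ to 3′ on the plus strand with the match in capitals, at chr2:79255176-79255475 for Itga4 and chr7:128129300-128129599 for Itgax.
Itga4: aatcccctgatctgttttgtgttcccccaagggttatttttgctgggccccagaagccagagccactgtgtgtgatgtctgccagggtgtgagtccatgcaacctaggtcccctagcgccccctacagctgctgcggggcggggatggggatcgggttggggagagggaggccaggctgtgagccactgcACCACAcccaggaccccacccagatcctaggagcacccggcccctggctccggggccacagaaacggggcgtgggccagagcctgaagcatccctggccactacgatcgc
Itgax: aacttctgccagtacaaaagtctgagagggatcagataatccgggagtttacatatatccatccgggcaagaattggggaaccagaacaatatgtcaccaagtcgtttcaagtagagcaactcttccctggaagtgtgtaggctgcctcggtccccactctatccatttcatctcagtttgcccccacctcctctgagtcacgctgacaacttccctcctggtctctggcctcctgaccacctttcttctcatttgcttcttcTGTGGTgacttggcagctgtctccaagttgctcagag
The match began at base 191 of the window in Itga4 and at base 264 in Itgax. Between Runx2ko and Runx2wt these genes had log2 fold changes of 0.13 (SE 0.15) and -0.67 (SE 0.44), and both overlapped between the groups. The PU.1 letters GAGGAA, or TTCCTC on the other strand, occurred in 28.3% of all windows and in Itgam (3 matches), Itgb1 (1) and Itgb7 (1). A match describes the letters of a window and is not a bound site.

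Other genes of the adhesion machinery were read from 4 lists. Among 19 other integrin subunit genes, 7 were expressed enough to test. In Runx2wt against BM progenitor, where 13.5% of all genes passed, 1 rose and 0 fell, and in Runx2ko, where 17.2% passed, 1 rose and 0 fell, in both Itgb5, the beta5 chain of a vitronectin receptor. Itgb5 measured 13.1, 7.55 and 12.3 CPM in the BM progenitor libraries, 119, 132 and 103 CPM in those of Runx2wt and 3.88, 97.4 and 158 CPM in those labelled Runx2ko. All transformed libraries other than Runx2ko replicate 1 lay above BM progenitor, and that library lay below it. Its log2 fold change was 3.41 (SE 0.91, edgeR adjusted p 0.0383) in Runx2wt and 2.97 (SE 0.89, adjusted p 0.0485) in Runx2ko, or 3.51 without replicate 1. Leaving out 1 library in turn, its adjusted p stayed under 0.05 in 2 of 9 cases in Runx2wt (without Runx2ko replicate 1 or 3) and in 1 of 9 in Runx2ko (without Runx2ko replicate 1), and otherwise reached 0.138 and 0.161. With limma-voom it was 0.0938 in Runx2wt and 0.304 in Runx2ko.

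The most highly expressed gene of that list was Itga2b, the platelet integrin alphaIIb chain, and it rested on 1 library: it was at 688 CPM in Runx2ko replicate 1, against 29.9 to 46.9 CPM in BM progenitor and 0.761 to 12.0 CPM in the other 5 transformed libraries. The median log2 fold change of the list was -0.78 in Runx2wt and 0.38 in Runx2ko, beside 0.011 and 0.067 over all genes. Without replicate 1, which turns the sign in Runx2ko, these medians were -0.78 and -0.41. In that fit, where 28% and 28.5% of all genes passed, the list had 1 gene higher (Itgb5) and 3 lower (Itga2b, Itgb3 and Itga1) in Runx2wt, and 1 higher (Itgb5) and 1 lower (Itga2b) in Runx2ko; here and below, genes named for a fit without that library were named after their values were seen.

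The list of integrin activation and signalling holds talins, kindlins, Rap1 and its effectors, and Src family kinases. Of 22 tested out of 27, 0 rose and 1 fell in Runx2wt (13.5% of all genes passed), and 0 rose and 0 fell in Runx2ko (17.2%) in edgeR's test. In Runx2ko 3 genes were under an unadjusted p of 0.05, DESeq2 called 1 and limma-voom 2, beside 3746, 2529 and 1879 of all genes. Without replicate 1 there were 2 higher (Lyn and Skap2) and 2 lower (Fgr and Parvb) in Runx2wt, where 28% of all genes passed. In Runx2ko, where 28.5% passed, 3 were higher (Lyn, Skap2 and Pxn) and 0 lower. The gene that fell was Fgr, a Src family kinase that works downstream of beta2 integrins in myeloid cells. Fgr was at 23.9, 24.8 and 25.9 CPM in BM progenitor and at 2.63, 5.27 and 5.56 CPM in Runx2wt, with no overlap, and its log2 fold change was -2.48 (SE 0.58, edgeR adjusted p 0.0259). Runx2ko libraries, at 2.59, 9.71 and 17.9 CPM, also lay below BM progenitor. The change there, -1.29 (SE 0.55, edgeR adjusted p 0.13), did not pass. Rap1b, the small GTPase that switches integrins on and the most expressed gene of the list, was at 545 ± 28.8 CPM in BM progenitor and 643 ± 128 CPM in Runx2wt (SD, n = 3 each; log2 fold change 0.24, edgeR adjusted p 0.452). The list's median log2 fold change was 0.19 in Runx2wt and 0.029 in Runx2ko, or 0.13 in Runx2ko without replicate 1.

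Ligands gave calls in both directions. Of 15 listed adhesion ligand genes 7 were tested; 2 rose and 1 fell in Runx2wt, where 13.5% of all genes passed, and 2 rose and 2 fell in Runx2ko, where 17.2% passed. Leaving out Runx2ko replicate 1, 8 were tested, and 2 were higher (Cd47 and Thy1) and 2 lower (Vcam1 and Icam4) in Runx2wt, where 28% passed, and 2 higher (the same) and 3 lower (Vcam1, Fn1 and Icam4) in Runx2ko, where 28.5% passed. Vcam1, the ligand of VLA-4, measured 125, 95.5 and 81.8 CPM in the BM progenitor libraries, 7.71, 0 and 0.835 CPM in those of Runx2wt and 0.970, 11.2 and 5.96 CPM in those labelled Runx2ko. Every transformed library lay far below BM progenitor. Its log2 fold change was -5.00 (SE 0.99, edgeR adjusted p 0.0151) in Runx2wt and -3.99 (SE 0.93, adjusted p 0.0213) in Runx2ko, or -4.94 and -3.52 without Runx2ko replicate 1.

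Thy1, a surface glycoprotein that binds Mac-1 and other integrins, rose in both groups in edgeR's test: it measured 2.55, 4.05 and 3.19 CPM in the BM progenitor libraries, 4.70, 36.3 and 12.8 CPM in those of Runx2wt and 71.5, 128 and 54.2 CPM in those labelled Runx2ko. The 3 groups did not overlap. The log2 fold change was 2.45 (SE 0.69, edgeR adjusted p 0.0457) in Runx2wt and 4.70 (SE 0.72, adjusted p 0.00554) in Runx2ko; between Runx2ko and Runx2wt it was 2.25 (SE 0.62, adjusted p 0.579) and did not pass. With Runx2ko replicate 1 left out, the changes from BM progenitor were 2.44 and 4.82. The Runx2wt call was not made by limma-voom (adjusted p 0.231) or on the authors' values (0.0697 and 0.0694 with pseudocounts of 1 and 0.5). T and NK cell markers apart from Gzmb, which mast cells also express, summed to 5.66 to 10.8 CPM in BM progenitor, 7.76 to 10.6 CPM in Runx2wt, and 25.9, 36.0 and 9.49 CPM in Runx2ko. In the same 3 Runx2ko libraries Itgal was at 168, 409 and 407 CPM. The part of these markers in the Itgal and Thy1 values was not tested.

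Cd47, the integrin-associated protein that signals to phagocytes, measured 457, 465 and 422 CPM in the BM progenitor libraries, 799, 859 and 702 CPM in those of Runx2wt and 686, 697 and 1042 CPM in those labelled Runx2ko. Both transformed groups lay above BM progenitor, by a log2 difference of 0.81 (SE 0.19, edgeR adjusted p 0.0238) in Runx2wt and 0.85 (SE 0.19, adjusted p 0.0177) in Runx2ko, or 0.81 and 0.95 without Runx2ko replicate 1. Fn1, the fibronectin gene, was at 32.3 ± 9.80 CPM in BM progenitor, 16.4 ± 11.5 CPM in Runx2wt and 4.95 ± 2.90 CPM in Runx2ko (SD, n = 3 each). It fell by 2.66 on the log2 scale in Runx2ko (SE 0.63, edgeR adjusted p 0.0224), or by 2.36 without replicate 1, and its value of -0.99 in Runx2wt did not pass (adjusted p 0.268). The median log2 fold change of the list was -0.95 in Runx2wt and 0.62 in Runx2ko. Leaving out Runx2ko replicate 1 gave -0.27 and -0.17, so 1 library decides the sign in Runx2ko.

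Among selectins, selectin ligands and their glycosylation genes, 15 of 17 were tested. In Runx2wt 1 rose and 1 fell (13.5% of all genes passed), and in Runx2ko 0 rose and 0 fell (17.2%). There 3 were under an unadjusted edgeR p of 0.05, DESeq2 called 2 and limma-voom 1, beside 3746, 2529 and 1879 of all genes. Without replicate 1 it was 1 higher (St3gal3) and 3 lower (Cd34, Gcnt1 and Podxl) in Runx2wt, where 28% of all genes passed, and 2 higher (Fut7 and St3gal3) and 3 lower (the same) in Runx2ko, where 28.5% passed. Cd34, a sialomucin of progenitors and endothelium, measured 81.0, 83.1 and 76.9 CPM in the BM progenitor libraries, 14.7, 1.94 and 3.62 CPM in those of Runx2wt and 34.6, 1.90 and 6.78 CPM in those labelled Runx2ko. It was lower in all 6 transformed libraries, and its log2 difference was -3.51 (SE 0.95, edgeR adjusted p 0.0402) in Runx2wt. In Runx2ko it was -2.52 (SE 0.91, adjusted p 0.0844), or -4.29 (adjusted p 0.00131) without replicate 1.

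St3gal3, a sialyltransferase that can build selectin ligands, rose in Runx2wt from 5.39 ± 1.03 to 20.4 ± 9.33 CPM (SD, n = 3 each), with a log2 difference of 1.90 (SE 0.47, edgeR adjusted p 0.0322), a call that limma-voom did not make (adjusted p 0.0607). In Runx2ko its change was 1.48 (edgeR adjusted p 0.0588), or 1.70 (adjusted p 0.0182) without Runx2ko replicate 1. Spn, the leukosialin gene and the most expressed of the list, was at 335 ± 21.8 CPM in BM progenitor, 306 ± 81.7 CPM in Runx2wt and 455 ± 98.4 CPM in Runx2ko, and did not pass (edgeR adjusted p 0.73 and 0.214). The list's median log2 fold change was -0.13 in Runx2wt and 0.20 in Runx2ko, or -0.13 and 0.14 without Runx2ko replicate 1. Between Runx2ko and Runx2wt 0 genes of the 4 lists passed in edgeR or limma-voom, and DESeq2 called 1 (Thy1), beside 48 of all genes. In the order above, 1, 2, 3 and 3 genes of the lists were under an unadjusted edgeR p of 0.05, beside 886 of all 11196 genes tested.

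The calls in these lists depended on single libraries. Leaving out any 1 BM progenitor library ended every call in them other than that of Thy1 in Runx2ko, which held in 9 of 9 cases. In Runx2wt, leaving out Runx2wt replicate 2 also ended the calls of Thy1, Cd47, Cd34, St3gal3 and Fgr, replicate 3 those of Thy1, Cd34, St3gal3 and Fgr, and replicate 1 those of Cd47 and Fgr. In Runx2ko, leaving out Runx2ko replicate 3 ended those of Vcam1 and Fn1. For these 7 genes the edgeR adjusted p then lay between 0.0548 and 0.163, with the direction kept. The cases that ended the calls of Itgb5 are given above with that gene.

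**Figure D5:**
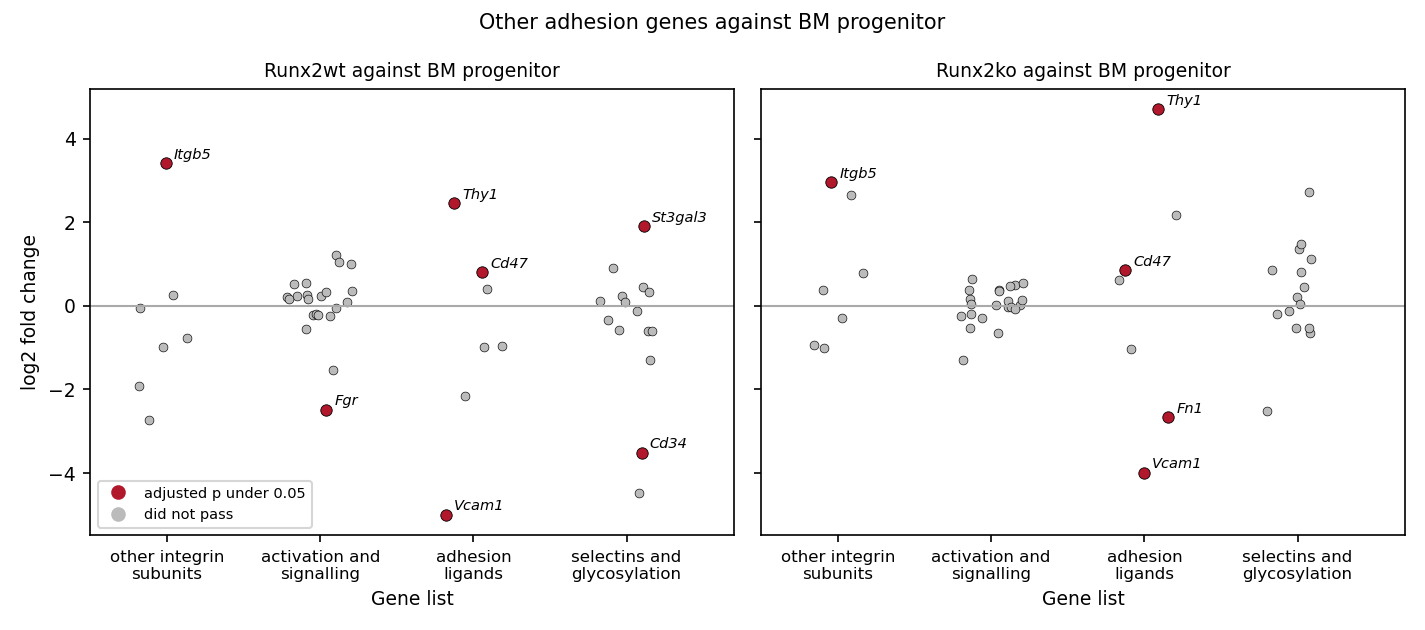
Log2 fold change against BM progenitor of the tested genes in 4 adhesion gene lists (7, 22, 7 and 15 genes), 1 point per gene, red where the edgeR adjusted p was under 0.05. Vcam1 lies at -5.00 and -3.99, Thy1 at 2.45 and 4.70, and 21 of 22 signalling genes did not pass in Runx2wt.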

How the data were processed

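Expression was measured in 9 libraries with a 3' tag kit. The deposited table of raw counts per gene was made by the authors; FastQC, STAR, DESeq2 and GRCm38 are named in the submitters' processing notes, without versions. The counter and its strand setting were not given in the sources used here. A deposited table of the authors' normalized values, which equal the counts divided by 1 constant per library, served only for 2 alternatives on the log2 scale (pseudocounts of 1 and 0.5). Gene IDs were matched to symbols for 21042 of 21159 genes.

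Counts were fitted with edgeR 4.0.16 (R 4.3.3) with TMM scaling, filterByExpr and the quasi-likelihood F-test over all 9 libraries, with Benjamini-Hochberg adjustment over the 11196 genes tested (threshold 0.05). Without Runx2ko replicate 1, 11636 genes were tested. CPM use TMM-scaled library sizes, and log2 CPM a prior count of 2. Alternatives used limma 3.58.1 and DESeq2 1.42.0. The fit was also run on simulated counts in which no library stood apart, so that run does not speak to the effect of Runx2ko replicate 1. The edgeR P-values set each difference against the spread between libraries, which was estimated over all groups together. Precision is limited by 3 libraries a group. The lowest chi-square per gene between libraries of 1 group was 4.25, so they differed by more than counting error. This value cannot tell whether any libraries came from the same RNA or the same pool of cells.

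The members and the gene lists were chosen with earlier results of these data known. Named genes were the members, Runx2, the 5 genes most like Itgal, and from each list the most expressed gene and up to 3 passing genes of largest change with at least 10 CPM in the higher group.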

Additional observations from a re-analysis of the deposited data

How the results depend on the processing

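With 3 libraries a group and 1 that stood apart, counts of calls moved with the spread estimate. In Runx2wt against BM progenitor, 1513 genes passed, against 3679 when only the compared libraries were fitted and 209 to 3256 when 1 library was left out. Of the 8 members other than Itgal, 1 passed, against 4 with only the compared libraries, 0 with limma-voom, RLE size factors or either pseudocount on the authors' values, and 0 to 3 with 1 library left out. In Runx2ko against BM progenitor, 1924 genes passed, against 1262 with only the compared libraries and 405 to 3311 with 1 library left out. Of the members 1 passed, against 2 with DESeq2, 0 without a filter or with only the compared libraries, and 0 to 4 with 1 library left out. Between Runx2ko and Runx2wt 0 genes passed, against 48 with DESeq2 and 0 to 5 with 1 library left out.

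With the replicate number as a block, 922 and 1120 genes passed in the comparisons of Runx2wt and Runx2ko with BM progenitor, and 0 members in either. Correlations between libraries could not settle whether the numbers pair the samples. Deviations of same-numbered libraries correlated at 0.012 to 0.059 (Runx2wt and BM progenitor), -0.066 to 0.0094 (Runx2ko and BM progenitor) and -0.050 to 0.072 (Runx2ko and Runx2wt). Differently numbered libraries of Runx2ko and Runx2wt ranged more widely, from -0.11 to 0.14.

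Signs turned for small or unsteady values. Icam1 in Runx2wt was -0.0078 with limma-voom, -0.035 with the replicate block, -0.018 without BM progenitor replicate 2 and -0.27 without Runx2wt replicate 2, with a highest value of 0.27 when 1 library was left out. With 1 library left out, Selplg in Runx2wt lay between -0.027 (without Runx2wt replicate 2) and 0.24, and Spn between -0.29 and 0.074 (without Runx2wt replicate 3). In Runx2ko, Itgb7 was -2.40 with limma-voom, -0.85 with the replicate block, -2.07 and -2.11 on the authors' values with pseudocounts of 1 and 0.5, and between -4.07 (without Runx2ko replicate 1) and 1.45 with 1 library left out. Itga2b was -1.62, then -0.97 and -1.03, and between -2.93 and 3.21, under the same settings other than the block. Itgax lay between -0.37 and 0.27 (without BM progenitor replicate 3), and Icam1 between -0.88 and 0.14 (without Runx2ko replicate 1). The causes were not tested, beyond what leaving out that 1 library shows. The difference in Itgal share from BM progenitor stayed between -22.9 and -17.6 points in Runx2wt and between 10.4 and 24.7 points in Runx2ko when 1 library was left out.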
